A study of Rattus norvegicus with 24 samples.

Results

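The effect of metformin on the rat liver transcriptome was described as the mean of 3 within-day differences, metformin minus control, on days 1, 3 and 14 of treatment. All 24 arrays of the series entered it, and each array was compared only with arrays of its own day. The differences were taken over the 22093 genes whose probe set carries a single gene symbol, with the probe set of the highest mean intensity standing for a gene that has several. Of these, 19686 passed a filter on dim signal and were tested. Genes that moved the same way on every day were kept apart from genes whose mean was carried by 1 day.

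The 3 metformin groups were male RccHan Wistar rats, aged 7 to 8 weeks, given 800 mg/kg metformin by gavage for 1, 3 or 14 days. The 3 control groups were rats of the same strain, sex and age given the vehicle, a mixture of ethanol, Kolliphor HS 15 and tap water, that is 0 mg/kg metformin, over the same days. Each group held 4 arrays of total liver RNA, whereas the submitters state 5 animals per group. Animals were caged in small groups that the labels do not tie to arrays, and the time since the last dose or meal and the order of scanning were not given in the sources used here.

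Metformin is a biguanide used against type 2 diabetes that lowers glucose output from the liver. It is known to inhibit respiratory complex I and to activate the AMP-activated kinase, which restrains lipid and glucose synthesis. Liver also secretes most plasma proteins, so its cells depend on chaperones of the cytosol and the endoplasmic reticulum (ER), on vesicle traffic to the Golgi, and on a supply of charged tRNAs, and stress in any of these is sensed by dedicated transcriptional programmes.

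The arrays carried the markers of liver. Median log2 intensities per array ran between 4.80 and 5.11, and the lowest correlation between arrays of 1 group across genes was 0.989. The summed level of 9 hepatocyte markers spanned 21.97 to 22.16 log2 units in metformin livers and 22.10 to 22.19 in control livers, and none of the 9 was called. Markers of other cells were also measured. All 15 Kupffer cell markers had a mean difference below 0 (median -0.17), with day medians of 0.14, -0.47 and -0.15 on days 1, 3 and 14. Their summed level was 13.90 to 15.11 in metformin livers and 13.52 to 15.36 in control livers. All 13 stellate cell markers (median -0.05) and all 12 sinusoidal endothelial markers (median -0.08) had a mean difference below 0 as well. The summed stellate level was 12.90 to 14.06 in metformin livers and 12.84 to 14.22 in control livers. The summed endothelial level was 14.17 to 14.99 in metformin livers and 14.29 to 15.13 in control livers. Their day medians were 0.12, -0.14 and -0.30 for stellate and 0.11, -0.13 and -0.21 for endothelial markers. In each of these sets the median was thus above 0 on day 1 and below 0 on days 3 and 14. None of these markers was called, all of them passed the dim-signal filter, and their part in the results below was not tested. In bulk tissue, fewer cells of a type and less RNA per cell cannot be told apart.

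Genes were called at an adjusted p under 0.05 in limma with Benjamini-Hochberg adjustment over all tested genes. On the mean of the 3 days 635 genes were called, 3.23% of those tested, with 550 higher (2.79%) and 85 lower (0.432%) in metformin livers. The higher share of 86.6% was 70.5% after quantile normalization and 71.7% after cyclic loess, so the excess of rises depends in part on the scaling. Most effects were small. The median absolute log2 difference of a called gene was 0.30, and 5 called genes reached 2-fold. Leaving out 1 array at a time gave 393 to 945 calls, and the count moved over 1.5 times without control day 14 replicate 1 (422), metformin day 1 replicate 4 (393), metformin day 3 replicate 2 (417) or metformin day 3 replicate 4 (420).

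The mean reached genes that no day reached alone. Taken alone, day 1 called 3 genes (0.0152%), day 3 called 50 (0.254%) and day 14 called 648 (3.29%). In all, 311 of the 635 genes were called on no single day. Conversely, 344 genes called on day 14 were not called on the mean. Of the 635 genes, 514 had the same sign on all days (80.9%, against 27.8% of all tested genes). Selection on the mean itself favours such genes, so this share is a description.

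A called gene was termed shared if all days had the sign of the mean and the largest day made up at most 2/3 of the sum of the 3 differences, and carried by 1 day if that share was above 2/3. By this description 505 genes were shared (2.57% of tested genes; 446 higher and 59 lower), 63 were carried by 1 day (0.32%; 46 higher and 17 lower), and 67 fell in between. The cut runs through a continuum, with Prkcz just inside the shared class at a share of 0.666 and Psmd14 just outside it at 0.667. On days 1, 3 and 14 the median difference of the shared rises was 0.16, 0.36 and 0.40, and that of the shared falls was -0.21, -0.33 and -0.35. Of the 63 genes carried by 1 day, 61 were carried by day 14 and 2 by day 3.

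**Figure D1:**
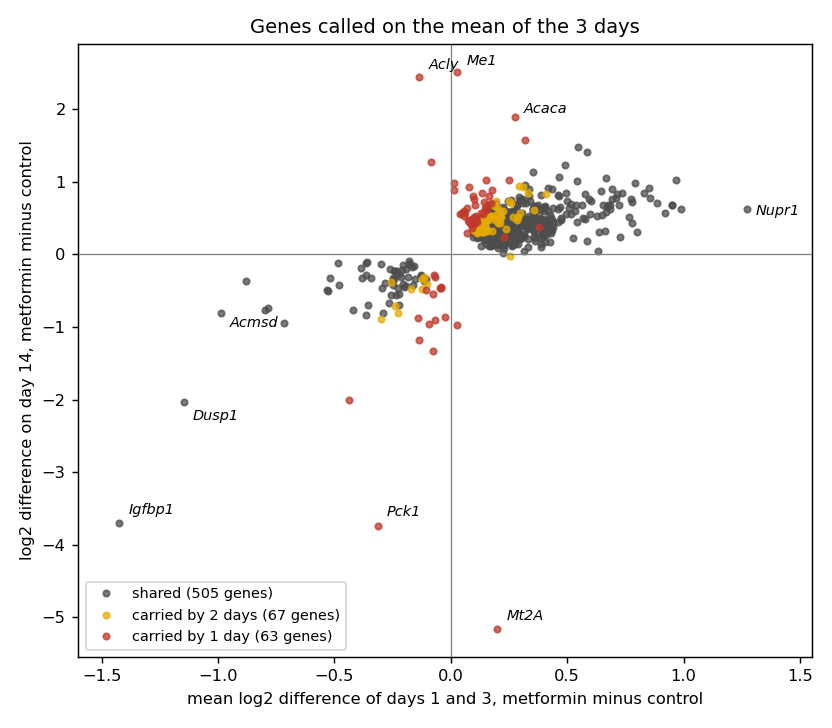
Each point is 1 of the 635 genes called on the mean of the 3 days. The horizontal axis is the mean log2 difference of days 1 and 3 and the vertical axis that of day 14, metformin minus control, and colours give the 3 classes. Shared genes lie at the upper right and lower left, with Nupr1, Dusp1 and Igfbp1 farthest out, and genes carried by 1 day lie along the vertical axis, with Mt2A and Pck1 at the bottom and Acly and Me1 at the top.

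Among the shared genes, 9 had all 4 metformin arrays above all 4 control arrays on each of the 3 days, 0.0457% of tested genes, and none had all 4 below. They were Stx5, Stip1, Sec24d, Golph3l, Papola, Cad, Ighmbp2, Wrnip1 and Zfr, a set chosen after the values were seen. Syntaxin 5 (Stx5), the SNARE through which vesicles from the ER fuse with the Golgi, had the smallest p of all genes. On day 1 Stx5 read 8.53, 8.65, 8.63 and 8.77 on the log2 intensity scale in metformin livers, against 8.28, 8.03, 8.29 and 8.45 in control livers. On day 3 Stx5 read 8.66, 8.93, 8.86 and 9.06 in metformin livers, against 8.29, 8.44, 8.25 and 8.25 in control livers. On day 14 Stx5 read 9.06, 9.17, 9.09 and 9.17 in metformin livers, against 8.41, 8.58, 8.81 and 8.69 in control livers. No day overlapped. The mean log2 difference was 0.48 ± 0.06 (SE, 12 arrays per treatment; limma adjusted p = 0.000378), a rise of 1.40-fold. Sec24d, a coat protein of the vesicles that leave the ER, rose by a log2 difference of 0.46 ± 0.07, and Golph3l, a Golgi membrane protein, by 0.82 ± 0.12. Papola, the nuclear poly(A) polymerase, had nearly the same difference on the 3 days, 0.39, 0.39 and 0.36. Cad, the enzyme that starts pyrimidine synthesis, rose by 0.34 ± 0.06. The rises of the helicase Ighmbp2 (0.20 ± 0.04), of Wrnip1, which acts at stalled replication forks (0.25 ± 0.04), and of the RNA-binding protein Zfr (0.24 ± 0.04) were small but separated. Ighmbp2 was the 1 gene whose 12 metformin arrays, 6.64 to 6.98, all lay above its 12 control arrays, 6.45 to 6.63 (0.00508% of tested genes).

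A stricter description asked for a call on the mean of every pair of days, whichever day was left out. It was met by 21 genes, all higher. Of these, 6 are pseudogene symbols of the constitutive chaperone gene Hspa8, whose sequences resemble it, so that they cannot be counted as separate genes. The other 15 were Hspa8, Stip1, Chordc1, Stx5, Sec24d, Arfgap3, Prrc1, Atp2a2, Atp6v0a2, Entpd7, Ufl1, Tbccd1, Papola, Axin2 and Tbx3. The calcium pump of the ER, Atp2a2, rose by 0.48 ± 0.07, and Atp6v0a2, a subunit of the proton pump of the Golgi and endosomes, by 0.46 ± 0.06. Entpd7, a nucleoside diphosphatase of intracellular membranes, rose by 0.86 ± 0.13, and Ufl1, the ligase that attaches UFM1 to ER-bound ribosomes, by 0.50 ± 0.07. Prrc1 rose by 0.60 ± 0.09 and Tbccd1 by 0.72 ± 0.12.

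Part of the cytosolic and mitochondrial chaperones rose, with list medians of the log2 difference of 0.24, 0.19 and 0.39 on days 1, 3 and 14. Of 23 tested heat shock proteins and cochaperones 10 were called, all higher (43.5%, against 2.79% of all tested genes called higher), with a list median of 0.23 beside a median of -0.0046 over all genes, and 9 of the 10 were shared. Hsph1, the Hsp110 protein that exchanges nucleotide on Hsp70, changed most. On day 1 Hsph1 read 11.58, 11.78, 11.76 and 12.25 in metformin livers, against 10.49, 10.71, 11.49 and 10.88 in control livers. On day 3 Hsph1 read 11.05, 11.74, 11.27 and 12.13 in metformin livers, against 10.58, 10.05, 10.80 and 10.81 in control livers. On day 14 Hsph1 read 12.09, 12.24, 12.50 and 12.42 in metformin livers, against 10.40, 11.71, 12.33 and 10.72 in control livers. Its groups did not overlap on days 1 and 3, and on day 14 control replicate 3 lay within the metformin range. The mean difference was 0.99 ± 0.19, with 0.95, 0.99 and 1.02 on days 1, 3 and 14 (limma adjusted p = 0.00567).

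Hspa8, the constitutive Hsp70 of the cytosol, was also even over time. On day 1 Hspa8 read 18.74, 19.22, 18.93 and 19.28 in metformin livers, against 18.46, 18.11, 18.84 and 18.40 in control livers. On day 3 Hspa8 read 18.77, 18.97, 18.91 and 19.16 in metformin livers, against 18.18, 18.11, 18.34 and 18.31 in control livers. On day 14 Hspa8 read 19.00, 19.33, 19.31 and 19.24 in metformin livers, against 18.03, 18.67, 19.01 and 18.44 in control livers. The groups were apart on day 3, while 1 control array on each of days 1 and 14 reached into the metformin range. The mean difference was 0.66 ± 0.10 (limma adjusted p = 0.000935). Stip1, the adaptor that hands clients from Hsp70 to Hsp90, was apart on every day. On day 1 Stip1 read 12.36, 12.67, 12.43 and 12.74 in metformin livers, against 11.92, 11.66, 12.19 and 12.16 in control livers. On day 3 Stip1 read 12.03, 12.27, 12.16 and 12.53 in metformin livers, against 11.68, 11.38, 11.77 and 11.69 in control livers. On day 14 Stip1 read 12.41, 12.76, 12.72 and 12.76 in metformin livers, against 11.59, 12.05, 12.31 and 11.68 in control livers. Every metformin array exceeded every control array of its day, and the mean difference was 0.65 ± 0.09 (limma adjusted p = 0.000674). The Hsp90 cochaperone Chordc1 rose by 0.75 ± 0.11. Smaller rises were seen for the Hsp90 activator Ahsa1 (0.31), the mitochondrial chaperonin Hspd1 (0.23), Hspa4 (0.20) and the chaperonin subunits Cct2, Cct3 and Cct4 (0.23 to 0.25). The cytosolic chaperonin TRiC, which folds actin and tubulin, is a family added after the values were seen. Its subunit Cct6a rose by 0.37 ± 0.07, and 7 of 8 subunits were called higher (87.5%, against 2.79% of all tested genes). That count was 3 or 4 in 12 of the 24 fits that leave out 1 array, and 4 after quantile normalization.

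The 250 bases before the start of these genes were searched on both strands for the heat shock element bound by heat shock factor 1, that is GAA, TTC and GAA with any 2 bases between neighbours. It occurs in 3 of the 10 called members, Hspa8, Hspd1 and Hsph1, and in 0.663% of 33469 rat promoters. The promoters of the 2 largest of them follow, with matches in capitals, as given by RefSeq on build GRCr8, for Hsph1 at chr12:10427118-10427367 and for Hspa8 at chr8:50080264-50080513, both on the plus strand. A match is a description of these letters and not evidence of binding. Uncalled members of the list were not searched, so these shares do not show whether called members differ from them.
Hsph1: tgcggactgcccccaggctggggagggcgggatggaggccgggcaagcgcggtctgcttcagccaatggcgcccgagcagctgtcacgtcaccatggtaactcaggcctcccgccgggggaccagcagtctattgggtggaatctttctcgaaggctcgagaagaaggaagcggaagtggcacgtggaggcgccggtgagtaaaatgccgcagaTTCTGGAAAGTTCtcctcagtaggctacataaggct
Hspa8: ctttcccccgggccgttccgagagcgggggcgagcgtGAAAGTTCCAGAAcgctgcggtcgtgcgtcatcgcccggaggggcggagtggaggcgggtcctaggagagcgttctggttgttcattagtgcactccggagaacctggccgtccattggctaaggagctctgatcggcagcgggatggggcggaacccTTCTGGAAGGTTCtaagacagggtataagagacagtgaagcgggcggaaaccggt

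Chaperones and degradation factors of the ER made up the second group of rises. Of 23 tested genes of the unfolded protein response 11 were called, all higher (47.8%, against 2.79% of all tested genes called higher). The list median was 0.22, and 10 of the 11 were shared. Creld2, an ER-resident protein induced by misfolded proteins, was the largest. On day 1 Creld2 read 9.16, 9.95, 9.54 and 9.97 in metformin livers, against 9.27, 9.15, 9.69 and 9.56 in control livers. On day 3 Creld2 read 9.77, 10.73, 10.23 and 10.91 in metformin livers, against 9.62, 9.30, 9.62 and 9.35 in control livers. On day 14 Creld2 read 10.99, 10.86, 10.82 and 10.73 in metformin livers, against 9.32, 9.38, 9.88 and 9.19 in control livers. The groups overlapped on day 1 and were apart on days 3 and 14, and the differences were 0.24, 0.94 and 1.41 on the 3 days. The mean difference was 0.86 ± 0.12 (limma adjusted p = 0.000899), and a difference among the days was not called (adjusted p = 0.128). Hyou1, the Hsp110 of the ER, had 0.04, 0.63 and 0.91 on the 3 days (mean 0.52 ± 0.12). The call of Hyou1 rests on its brightest probe set and was lost when all its probe sets were averaged (limma adjusted p = 0.499). Syvn1, the ubiquitin ligase of ER-associated degradation, was more even, with 0.35, 0.39 and 0.65 (mean 0.46 ± 0.10). The list also held smaller rises of Hspa5, the ER Hsp70 known as BiP (0.31), of Hsp90b1 (0.22), of the J proteins Dnajb9 (0.54) and Dnajb11 (0.36), of the isomerase Pdia4 (0.36), and of the stress sensor Ern1 (0.38). Herpud1, a scaffold of ER-associated degradation, rose by 0.63. Edem1, which marks glycoproteins for degradation, was the 1 member carried by 1 day, with -0.01, 0.76 and 0.38 on the 3 days. Ficd, outside the list, switches BiP off by adding AMP to it, and rose by 0.80 ± 0.20, a call kept in 15 of the 24 fits without 1 array. The list's count was 7 without control day 1 replicate 2, control day 3 replicate 1, metformin day 1 replicate 4 or metformin day 3 replicate 2.

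The ER stress element, searched on both strands as CCAAT and CCACG with any 9 bases between them, or as ATTGG and CCACG with any 1 base between them, is read by the factors ATF6 and XBP1. It occurs in 0.108% of rat promoters and in 5 of the 10 called members with a promoter entry, Creld2, Herpud1, Hsp90b1, Hspa5 and Hyou1. The largest of them and BiP are shown, with the match in capitals, from chr7:121789134-121789383 and chr3:38452766-38453015, both on the plus strand of GRCr8 in RefSeq. The list gathers genes of this stress response, and its uncalled members were not searched. The shares therefore do not set called against uncalled members.
Creld2: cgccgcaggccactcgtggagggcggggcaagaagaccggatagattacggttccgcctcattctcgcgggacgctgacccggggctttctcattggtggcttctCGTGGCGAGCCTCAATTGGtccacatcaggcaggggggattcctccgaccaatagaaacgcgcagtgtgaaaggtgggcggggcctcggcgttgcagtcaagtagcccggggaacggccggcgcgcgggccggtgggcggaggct
Hspa5: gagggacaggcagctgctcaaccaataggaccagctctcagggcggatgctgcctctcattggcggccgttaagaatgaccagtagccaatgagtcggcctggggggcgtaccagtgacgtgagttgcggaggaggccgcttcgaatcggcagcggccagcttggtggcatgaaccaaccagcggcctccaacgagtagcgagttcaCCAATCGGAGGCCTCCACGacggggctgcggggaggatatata

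Genes of transport between the ER and the Golgi formed the third group. Of 29 tested genes 13 were called, all higher (44.8%, against 2.79% of all tested genes called higher). The list median was 0.17, and 12 were shared. Sec23b, a component of the COPII coat that buds from the ER, had the largest difference among the coat genes. On day 1 Sec23b read 10.05, 10.34, 10.40 and 10.69 in metformin livers, against 10.26, 9.67, 10.39 and 10.05 in control livers. On day 3 Sec23b read 10.48, 11.36, 11.05 and 11.53 in metformin livers, against 9.85, 9.98, 10.14 and 10.02 in control livers. On day 14 Sec23b read 11.33, 11.88, 11.42 and 11.22 in metformin livers, against 10.29, 10.58, 10.85 and 10.54 in control livers. The groups overlapped on day 1 and were apart on days 3 and 14, and the mean difference was 0.76 ± 0.11 (limma adjusted p = 0.00106). Arfgap3, which drives uncoating of COPI vesicles, rose by 0.73 ± 0.11. The COPI subunits Copb1 and Arcn1 rose by 0.28 each, Sec24a by 0.21 and Arf4 by 0.18. Golga3 (0.35), Blzf1 (0.36) and Scfd1 (0.34), which tether or fuse vesicles at the Golgi, also rose, Scfd1 on days 3 and 14 with -0.13 on day 1. The tethering subunits Cog3 (0.38 ± 0.06) and Cog6 (0.37 ± 0.06) rose. They were the 2 called of 7 tested subunits of their complex (28.6%, against 2.79% of all tested genes called higher). The median of the 7 was -0.0038 and 4 had a mean below 0, so the rise did not extend over the complex. That complex is a family added after the values were seen. In another such family, of 17 tested genes of the signal recognition particle, the translocon and the signal peptidase, 4 were called, all higher (23.5%, against 2.79% of all tested genes), namely Srp68 (0.42 ± 0.09), Srp54a (0.28 ± 0.05), Srp19 (0.25 ± 0.07) and Spcs2 (0.27). Srp19 kept its call in 10 of the 24 fits without 1 array, and the family's count was 2 in 8 of those fits.

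**Figure D2:**
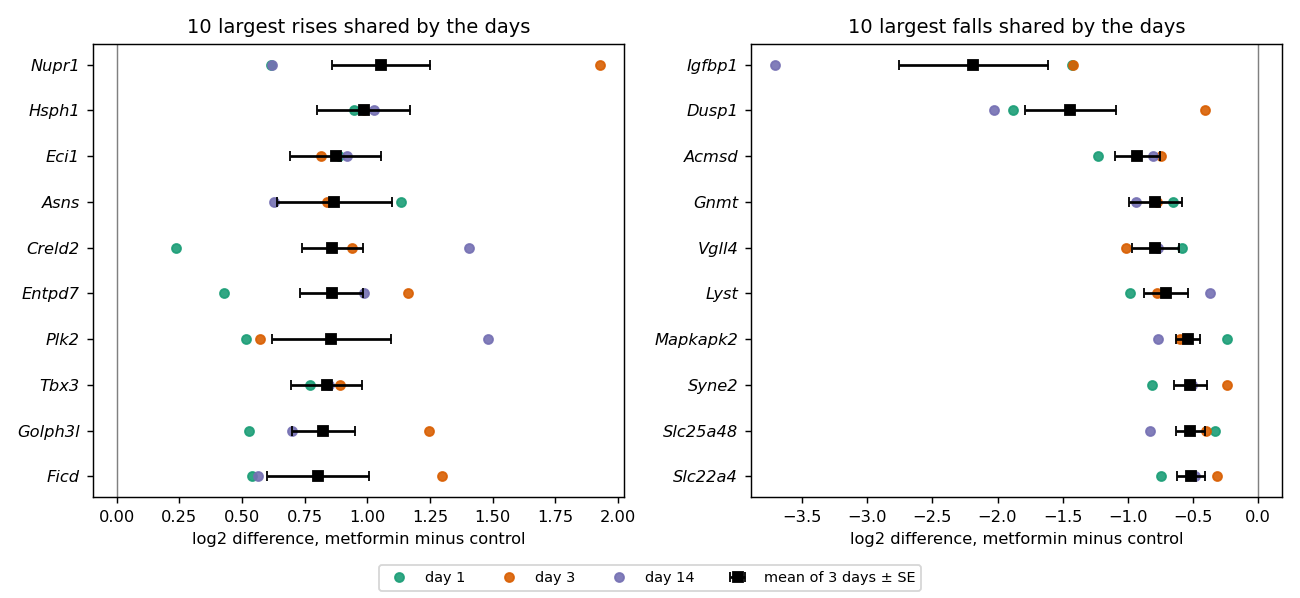
The 10 largest rises and the 10 largest falls of the shared class. Coloured points give the log2 difference, metformin minus control, on days 1, 3 and 14 (4 arrays per treatment and day), and black squares the mean of the 3 days with its SE. Hsph1, Eci1 and Tbx3 lie close together on the 3 days, whereas Nupr1 is largest on day 3 and Igfbp1 on day 14.

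In the integrated stress response the factor ATF4 raises amino acid synthesis and tRNA charging. Its list had 9 of 32 tested genes called, all higher and all shared (28.1%, against 2.79% of all tested genes called higher). The list median was 0.26. Without control day 14 replicate 1, metformin day 1 replicate 4 or metformin day 3 replicate 4 the count was 5. Nupr1, a stress-induced chromatin protein, had the largest shared rise of all. On day 1 Nupr1 read 11.03, 11.62, 11.76 and 12.03 in metformin livers, against 12.43, 10.48, 10.74 and 10.31 in control livers. On day 3 Nupr1 read 13.08, 12.42, 12.38 and 12.48 in metformin livers, against 10.47, 11.34, 10.10 and 10.74 in control livers. On day 14 Nupr1 read 11.43, 11.38, 11.83 and 11.67 in metformin livers, against 10.75, 10.81, 11.24 and 11.03 in control livers. The groups were apart on days 3 and 14, and on day 1 control replicate 1 was the highest of the 8 arrays. The mean difference was 1.06 ± 0.19, or 2.08-fold (limma adjusted p = 0.00499), and day 3 contributed most, with 0.62, 1.93 and 0.62 on the 3 days. Asns, the asparagine synthetase, had a mean difference of 0.87 ± 0.23 that kept its call in 6 of the 24 fits without 1 array. On day 1 Asns read 7.03, 7.86, 8.87 and 8.89 in metformin livers, against 8.59, 6.11, 6.63 and 6.77 in control livers. On day 3 Asns read 7.58, 7.57, 8.45 and 7.66 in metformin livers, against 7.06, 6.89, 6.84 and 7.10 in control livers. On day 14 Asns read 6.89, 7.16, 7.05 and 6.94 in metformin livers, against 6.17, 6.14, 6.65 and 6.57 in control livers. Its control replicate 1 on day 1, the array that also stood out for Nupr1, read above 2 of the 4 metformin arrays. The remaining called members were Atf5 (0.57), Psph of serine synthesis (0.40), the tRNA exporter Xpot (0.36 ± 0.06) and the synthetases Cars1, Gars1, Nars1 and Wars1.

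The amino acid response element, searched as TGATGNAA on both strands, is bound by ATF4. It occurs in 3.4% of rat promoters and in 2 of the 7 called members with a promoter entry. Here too the uncalled members were not searched, so called and uncalled members are not compared. The promoter of Nupr1, on the minus strand at chr1:190645902-190646151 of GRCr8 in RefSeq, is given with its match in capitals.
Nupr1: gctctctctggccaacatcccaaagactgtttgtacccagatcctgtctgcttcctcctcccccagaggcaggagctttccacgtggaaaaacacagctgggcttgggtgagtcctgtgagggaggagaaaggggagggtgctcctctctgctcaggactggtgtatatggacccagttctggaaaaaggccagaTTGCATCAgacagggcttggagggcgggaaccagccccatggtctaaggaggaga

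Enzymes that charge tRNAs were raised in the cytosolic set. In families added after the values were seen, 12 of 18 cytosolic aminoacyl-tRNA synthetases were called, all higher (66.7%, against 2.79% of all tested genes), with a median of 0.32. Of 16 mitochondrial synthetases 0 were called by limma, against 3.23% of all tested genes called. They had a median of 0.11 and 3 genes at an unadjusted p under 0.05. The difference between the sets was not tested. Iars1, which charges isoleucine, was the largest. On day 1 Iars1 read 11.09, 11.25, 11.63 and 11.73 in metformin livers, against 11.96, 10.70, 11.13 and 10.67 in control livers. On day 3 Iars1 read 11.29, 11.88, 12.25 and 11.72 in metformin livers, against 10.82, 10.99, 11.04 and 10.72 in control livers. On day 14 Iars1 read 11.29, 11.72, 11.35 and 11.21 in metformin livers, against 10.60, 10.63, 10.55 and 10.85 in control livers. It was apart on days 3 and 14, and on day 1 control replicate 1 read highest, so that the mean difference was 0.65 ± 0.13 (limma adjusted p = 0.00858). Cars1 (0.60), Nars1 (0.57 ± 0.11), Yars1 (0.52) and Hars1 (0.45 ± 0.08) followed. Of 8 tested subunits of the initiation factors eIF2 and eIF2B, also a family added later, 4 were called higher (50%, against 2.79% of all tested genes). These were Eif2b1 (0.32 ± 0.07), Eif2b3 (0.31 ± 0.06), Eif2s1 (0.31 ± 0.07) and Eif2s2 (0.27).

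Ribosome assembly and tRNA modification had 13 of 27 tested genes called, all higher (48.1%, against 2.79% of all tested genes called higher). The list medians were 0.05, 0.41 and 0.27 on days 1, 3 and 14. Mettl1, which methylates tRNAs, was the largest. On day 1 Mettl1 read 6.75, 6.85, 6.92 and 7.19 in metformin livers, against 6.98, 6.34, 6.88 and 6.96 in control livers. On day 3 Mettl1 read 7.31, 7.65, 7.81 and 7.78 in metformin livers, against 6.50, 6.71, 6.97 and 6.59 in control livers. On day 14 Mettl1 read 7.49, 8.28, 7.47 and 7.18 in metformin livers, against 6.61, 6.26, 6.74 and 6.74 in control livers. The groups overlapped on day 1 and were apart on days 3 and 14, with differences of 0.14, 0.94 and 1.01 and a mean of 0.70 ± 0.11 (limma adjusted p = 0.00128). Heatr1, needed to process ribosomal RNA, rose by 0.49 ± 0.08. A further 4 members were carried by 2 days, since their day 1 difference was below 0. These were Dph5, which modifies elongation factor 2 (-0.03, 0.85 and 0.83), Nop58 of the small nucleolar particles (-0.23, 0.82 and 0.94), Trmt61a (-0.04, 0.66 and 0.93) and Pwp1 (-0.14, 0.67 and 0.52). In a family added after the values were seen, RNA polymerase III, which makes tRNAs, had 4 of 10 subunits called, all higher (40%, against 2.79% of all tested genes), among them Polr3d (0.35 ± 0.07), Polr3f (0.28 ± 0.06) and Polr3a (0.21 ± 0.06, kept in 7 of the 24 fits without 1 array). The family's count was 2 in 14 of those 24 fits and 2 after quantile normalization. Its median was 0.12, and 4 of the 10 subunits had a mean below 0. The proteins of the cytosolic ribosome itself, also a family added later, had 0 of 69 called by limma, against 3.23% of all tested genes called. The count was 1 without control day 3 replicate 3. Their median was 0.03, with 4 genes at an unadjusted p under 0.05.

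Part of the proteasome subunits rose, by small amounts. Of 14 subunits of the 20S core 4 were called and of 18 subunits of its regulatory particle 6 were called, all higher (28.6% and 33.3%, against 2.79% of all tested genes), with day medians of 0.04, 0.14 and 0.29 for the core and 0.03, 0.11 and 0.30 for the regulatory particle. Psma1 (0.31 ± 0.06), Psma2 (0.21 ± 0.05) and Psma6 (0.20 ± 0.04) were core members, and Psmd14 (0.31 ± 0.07), Psmd4 (0.25 ± 0.06) and Psmd12 (0.23 ± 0.05) belonged to the regulatory particle. Both families were added after the values were seen, and the count for the regulatory particle was 3 after quantile normalization and after cyclic loess.

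Of 14 tested Wnt targets and genes of the pericentral hepatocytes 3 were called, all higher and shared (21.4%, against 2.79% of all tested genes called higher). Each was kept in all 24 fits without 1 array. Tbx3, a transcription factor downstream of beta-catenin, was even over time. On day 1 Tbx3 read 6.57, 6.94, 7.71 and 7.19 in metformin livers, against 6.27, 5.92, 6.25 and 6.89 in control livers. On day 3 Tbx3 read 7.01, 7.31, 7.24 and 7.68 in metformin livers, against 6.26, 6.23, 6.24 and 6.95 in control livers. On day 14 Tbx3 read 7.04, 7.74, 7.43 and 7.39 in metformin livers, against 6.02, 6.84, 6.46 and 6.89 in control livers. The groups overlapped on day 1 alone, and the mean difference was 0.84 ± 0.14 (limma adjusted p = 0.00249). Axin2, a feedback inhibitor of the pathway and 1 of the 3 genes called on day 1, was largest on that day. On day 1 Axin2 read 6.80, 7.20, 7.71 and 7.43 in metformin livers, against 6.53, 6.45, 6.38 and 6.47 in control livers. On day 3 Axin2 read 6.91, 6.89, 7.08 and 7.16 in metformin livers, against 6.73, 6.83, 6.62 and 6.85 in control livers. On day 14 Axin2 read 7.05, 7.19, 7.08 and 6.74 in metformin livers, against 6.39, 6.78, 6.51 and 6.60 in control livers. The groups were apart on days 1 and 3 and overlapped on day 14, and the differences were 0.83, 0.25 and 0.45 with a mean of 0.51 ± 0.08. Rnf43, which removes Wnt receptors from the cell surface, rose by 0.61 ± 0.14. The list's median was 0.05, and 6 of its 14 genes had a mean below 0, so the rise did not extend over the list.

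Genes of fatty acid oxidation controlled by PPARA showed many small differences of 1 sign. On the list of 26 tested genes 23 had a mean above 0, with medians of 0.34, 0.07 and 0.15 on days 1, 3 and 14. Over all 19686 tested genes 9442 had a mean above 0 and 3131 had an unadjusted p under 0.05. Lists without a call were also mostly of 1 sign, with 28 of 30 cell cycle genes above 0. So were 19 of 21 genes of the citric acid cycle with complexes II to V. Of the 26 genes 12 had an unadjusted p under 0.05 and 2 were called, both higher (7.69%, against 2.79% of all tested genes). These were Acot2, a mitochondrial acyl-CoA thioesterase (0.53 ± 0.11, with 1.00, 0.28 and 0.31 on the 3 days), and Hadhb, the thiolase subunit of the trifunctional protein (0.41 ± 0.10). Eci1, the enoyl-CoA isomerase of the same pathway, stood outside the list and had the third largest rise of the shared class, 0.87 ± 0.18, with 0.89, 0.82 and 0.92 on the 3 days. Cpt1a, which admits fatty acids to mitochondria, did not follow. On day 1 Cpt1a read 12.15, 12.19, 13.78 and 13.13 in metformin livers, against 11.80, 11.30, 11.68 and 11.56 in control livers. On day 3 Cpt1a read 12.06, 11.34, 11.65 and 11.41 in metformin livers, against 11.96, 12.35, 12.26 and 11.29 in control livers. On day 14 Cpt1a read 10.46, 8.40, 9.79 and 9.45 in metformin livers, against 11.48, 11.13, 10.87 and 11.32 in control livers. All metformin arrays were above the control arrays on day 1 and below them on day 14, so that 1.22, -0.35 and -1.67 averaged to -0.27 ± 0.21 (limma adjusted p = 0.598), and its difference among the days was called (adjusted p = 0.0236). Fgf21, a hepatokine of the PPARA programme, had a mean difference of 0.49 ± 0.18 that was not called (adjusted p = 0.165).

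Among single enzymes and regulators, Plk2, a stress-responsive polo-like kinase, had a shared rise of 0.86 ± 0.24 that kept its call in 6 of the 24 fits without 1 array. Tkfc, which phosphorylates the products of fructose cleavage, rose by 0.61 ± 0.16 (kept in 11 of 24), and the thioredoxin reductase Txnrd1 by 0.29 ± 0.08 (kept in 11 of 24).

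**Figure D3:**
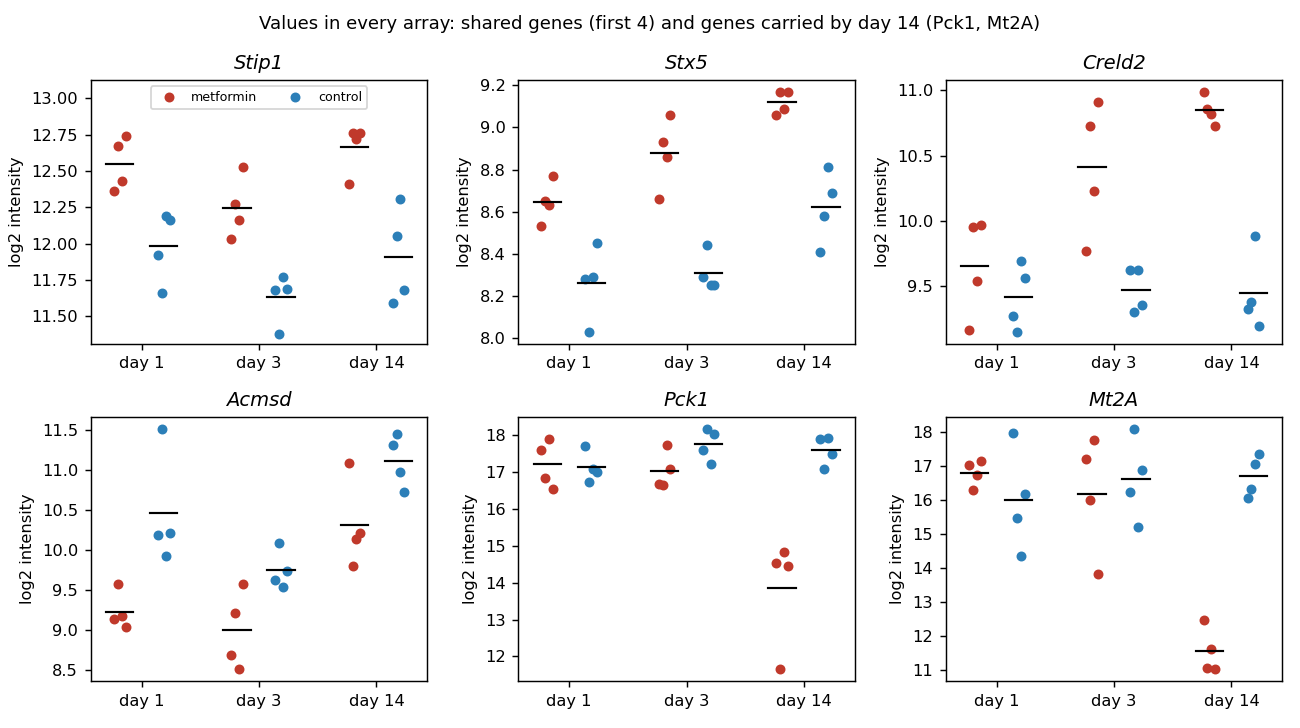
Log2 intensity in every array for 6 genes, with metformin in red and control in blue on days 1, 3 and 14, and black bars for the mean of 4 arrays. Stip1 and Stx5 are apart on each day and Creld2 from day 3 on, Acmsd is lower on each day, and Pck1 and Mt2A are apart on day 14 alone.

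Shared falls were fewer, and enzymes of amino acid breakdown were among them. Of 36 tested genes that break down amino acids or make urea 30 had a mean below 0 (median -0.10) and 3 were called lower (8.33%, against 0.432% of all tested genes called lower). Acmsd, which diverts tryptophan from NAD synthesis to oxidation, had the largest of these differences. On day 1 Acmsd read 9.13, 9.57, 9.17 and 9.03 in metformin livers, against 10.19, 11.51, 9.92 and 10.21 in control livers. On day 3 Acmsd read 8.69, 9.21, 8.51 and 9.57 in metformin livers, against 9.62, 10.08, 9.54 and 9.73 in control livers. On day 14 Acmsd read 11.08, 9.80, 10.14 and 10.21 in metformin livers, against 11.31, 11.45, 10.97 and 10.72 in control livers. The groups were apart on day 1, and on each of days 3 and 14 the highest metformin array exceeded the lowest control array. The mean difference was -0.93 ± 0.17 (limma adjusted p = 0.00541). Gnmt, the liver enzyme that uses methyl groups from S-adenosylmethionine, fell by 0.79 ± 0.20 on the log2 scale and kept its call in 9 of the 24 fits without 1 array. Asl of the urea cycle was carried by day 14, with 0.19, -0.32 and -0.91 on the 3 days.

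The 2 largest shared falls were those of Igfbp1 and Dusp1. Igfbp1, a secreted binding protein that insulin represses, had the largest mean difference of any called gene. On day 1 Igfbp1 read 12.30, 10.77, 13.01 and 9.43 in metformin livers, against 14.74, 11.71, 12.55 and 12.20 in control livers. On day 3 Igfbp1 read 13.38, 9.57, 11.33 and 11.17 in metformin livers, against 12.19, 14.82, 11.09 and 13.06 in control livers. On day 14 Igfbp1 read 7.59, 10.65, 7.52 and 6.97 in metformin livers, against 12.10, 9.90, 12.33 and 13.21 in control livers. The groups overlapped on every day, including day 14, where metformin replicate 2 lay above the lowest control array. The mean difference was -2.19 ± 0.57 (limma adjusted p = 0.0374), and the call was kept in 11 of the 24 fits without 1 array. Dusp1, a phosphatase of MAP kinases and an immediate early gene, followed. On day 1 Dusp1 read 11.04, 9.93, 10.12 and 9.13 in metformin livers, against 12.71, 12.58, 11.82 and 10.66 in control livers. On day 3 Dusp1 read 11.66, 9.93, 11.06 and 8.64 in metformin livers, against 11.04, 11.27, 9.69 and 10.94 in control livers. On day 14 Dusp1 read 10.33, 9.25, 9.37 and 8.52 in metformin livers, against 11.63, 12.59, 10.59 and 10.76 in control livers. Only day 14 was free of overlap, and the mean difference was -1.44 ± 0.35 (limma adjusted p = 0.024), which rose to an adjusted p of 0.0518 without metformin day 1 replicate 4. Igfbp1 and Dusp1 also belong to a list of 18 glucocorticoid targets, of which 5 were called (27.8%, against 3.23% of all tested genes). Of these, 4 were lower and 1, the Hsp90 cochaperone Fkbp5, was higher (0.23 ± 0.04). Over all tested genes 0.432% were called lower. The remaining 2 of these falls, Pck1 and Mt2A, were carried by day 14. This count lay between 2 and 5 in the fits without 1 array.

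Other shared falls were smaller than those of Igfbp1 and Dusp1. Vgll4, a cofactor of the TEAD factors, fell by 0.79 ± 0.18, and Lyst, which regulates lysosome size, fell by 0.71 ± 0.17. Mapkapk2, a kinase downstream of p38, fell by 0.54 ± 0.09 (limma adjusted p = 0.00206) with no overlap on days 3 and 14. The carnitine and ergothioneine transporter Slc22a4 fell by 0.52 ± 0.11, the mitochondrial carrier Slc25a48 fell by 0.52 ± 0.11, and the nuclear envelope protein Syne2 fell by 0.52 ± 0.13, with an adjusted p of 0.0525 for Syne2 in 1 of the 24 fits without 1 array.

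Of the 63 genes carried by 1 day, 61 were carried by day 14. All 61 genes carried by day 14 were called on that day, which follows from the way they were chosen, and 52 of them had a difference of the opposite sign on day 1. In the rises carried by 1 day the medians were -0.06, 0.29 and 0.60 on days 1, 3 and 14, and in the falls 0.18, -0.32 and -0.88. A moderated F-test in limma of the difference among the days called 105 genes (0.533%), of which 28 were also called on the mean. Of these 28, 24 were carried by 1 day, 4 were carried by 2 days and 0 were shared. The classes are cut from the same 3 differences that the F-test compares, and the shared class asks for even days. This split therefore follows largely from the definitions and is a description.

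Pck1, the enzyme that commits carbon to gluconeogenesis, was the largest fall carried by 1 day whose call was kept in all 24 fits without 1 array. On day 1 Pck1 read 17.61, 16.85, 17.91 and 16.53 in metformin livers, against 17.70, 16.73, 17.09 and 17.01 in control livers. On day 3 Pck1 read 16.68, 16.64, 17.74 and 17.09 in metformin livers, against 17.60, 18.17, 17.23 and 18.04 in control livers. On day 14 Pck1 read 14.53, 11.66, 14.82 and 14.44 in metformin livers, against 17.89, 17.09, 17.93 and 17.48 in control livers. The groups overlapped on days 1 and 3, and on day 14 the highest metformin array, 14.82, lay below the lowest control array, 17.09. The differences were 0.09, -0.72 and -3.74, with a mean of -1.46 ± 0.28 (limma adjusted p = 0.00635) and an adjusted p of 0.0211 for a difference among the days. Sds, which makes pyruvate from serine, had -0.37, -0.50 and -2.01 on the 3 days and a mean of -0.96 ± 0.25, kept in 14 of 24. They were the 2 called of 17 tested genes of gluconeogenesis (11.8%, both lower, against 0.432% of all tested genes called lower). The list median was -0.00025, and the count lay between 1 and 3 in the fits without 1 array. G6pc1, the last enzyme of the pathway, had -0.50, -0.81 and -1.00 on the 3 days with overlap on each, and its mean of -0.77 ± 0.29 was not called (adjusted p = 0.162).

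Metallothionein 2A (Mt2A), which binds zinc and copper, fell on day 14. On day 1 Mt2A read 17.03, 16.31, 16.74 and 17.16 in metformin livers, against 17.97, 15.48, 14.34 and 16.18 in control livers. On day 3 Mt2A read 17.21, 15.99, 17.76 and 13.81 in metformin livers, against 16.25, 18.09, 15.22 and 16.89 in control livers. On day 14 Mt2A read 12.48, 11.07, 11.62 and 11.03 in metformin livers, against 16.06, 16.34, 17.07 and 17.37 in control livers. On day 14 the metformin arrays lay between 11.03 and 12.48 and the control arrays between 16.06 and 17.37, while the groups overlapped on days 1 and 3. The differences were 0.82, -0.42 and -5.16, the mean was -1.59 ± 0.43 (limma adjusted p = 0.0432, kept in 5 of the 24 fits without 1 array), and the difference among the days was called (adjusted p = 0.0179). Mt1, Mt1m and Mt1f, near-identical relatives whose probes may share signal, showed the same pattern with means of -1.25, -1.74 and -1.16 that were not called on the mean. The metal response element, searched as TGCACNC or TGCGCNC on both strands, occurs in 20.6% of rat promoters at least once and in 0.266% at least 4 times. Mt2A holds 4 matches, in capitals below, on the minus strand at chr19:10838709-10838958 of GRCr8 in RefSeq.
Mt2A: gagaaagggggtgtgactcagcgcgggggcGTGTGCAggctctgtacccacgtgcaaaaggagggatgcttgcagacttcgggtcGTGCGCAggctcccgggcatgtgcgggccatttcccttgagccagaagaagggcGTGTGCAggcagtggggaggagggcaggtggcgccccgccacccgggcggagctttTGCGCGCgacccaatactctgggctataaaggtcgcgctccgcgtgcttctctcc

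On the list of fatty acid synthesis 4 of 17 genes differed among the days by limma's F-test, against 0.533% of all tested genes, and 3 were called on the mean. The list of 17 genes had medians of -0.55, -0.02 and 0.67 on days 1, 3 and 14. The 3 called higher on the mean (17.6%, against 2.79% of all tested genes called higher) were all carried by day 14. That count lay between 1 and 4 in the fits without 1 array. The day 1 differences below 0 were not called for any gene of the list. The median of the mean effect, 0.03, became -0.0014 after cyclic loess, so the list has no direction on the mean. Acly, which makes cytosolic acetyl-CoA from citrate, was 1 of the 3. On day 1 Acly read 14.30, 14.50, 13.57 and 13.24 in metformin livers, against 14.10, 14.72, 14.96 and 15.74 in control livers. On day 3 Acly read 14.80, 15.97, 14.99 and 14.43 in metformin livers, against 14.56, 14.01, 14.36 and 14.43 in control livers. On day 14 Acly read 16.67, 17.73, 17.45 and 17.33 in metformin livers, against 14.24, 14.96, 15.32 and 14.87 in control livers. On day 14 the groups were far apart, and on day 1 control replicate 1 was the 1 control array within the metformin range. The differences were -0.98, 0.71 and 2.45, with a mean of 0.73 ± 0.20 (limma adjusted p = 0.0494, kept in 6 of 24) and an adjusted p of 0.00956 for a difference among the days. Me1, a source of NADPH, had -0.51, 0.57 and 2.51 (mean 0.86 ± 0.23, kept in 7 of 24). Acaca, the acetyl-CoA carboxylase of lipid synthesis, had -0.16, 0.71 and 1.89 (mean 0.82 ± 0.19, kept in all 24). The fatty acid synthase Fasn had -1.05, 0.83 and 3.09, and its mean of 0.95 ± 0.30 was not called (adjusted p = 0.0928). The regulator Srebf1 had -1.30, -0.21 and 0.67 and was not called (mean -0.28 ± 0.20, adjusted p = 0.57).

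Other genes carried by day 14 were spread over pathways. The transferrin receptor Tfrc, which brings iron into cells, had -0.37, 1.00 and 1.58 (mean 0.74 ± 0.18, kept in 20 of 24). Mvd of cholesterol synthesis had -0.19, 0.02 and 1.28, the 1 called gene of 20 on its list (5%, against 3.23% of all tested genes). Pdk1, an inhibitor of pyruvate dehydrogenase, had -0.27, 0.29 and 0.98, and Magohb, an exon junction protein, had -0.001, 0.50 and 1.02. The receptor Erbb3 (0.29, -0.57 and -1.18) and Tcp11l2 (0.31, -0.46 and -1.33) fell on the mean. Baat, which joins bile acids to taurine or glycine, was carried by days 3 and 14 (0.03, -0.28 and -0.34) and kept its call in 11 of the 24 fits.

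Several lists that metformin is known for had no called gene on the mean. Over all tested genes 3.23% were called. Lists of these sizes would hold few calls or none at that share, so their lack of calls is a description. Of 31 tested subunits of respiratory complex I limma called 0, with 2 at an unadjusted p under 0.05 and a range of -0.09 to 0.14, and its median of 0.0062 was below 0 after quantile normalization, cyclic loess and centring. Limma called 0 of 8 genes of the AMP-activated kinase and its upstream kinases, with 0 at an unadjusted p under 0.05, and Prkaa1, its catalytic subunit, had a mean difference of -0.07 ± 0.07 (adjusted p = 0.72). Limma called 0 of 4 tested transporters of metformin, with 0 at an unadjusted p under 0.05. Triglyceride assembly (0 of 19), glycogen metabolism (0 of 9), apolipoproteins (0 of 17), cytochromes P450 with their nuclear receptors (0 of 20), the circadian clock (0 of 17), the citric acid cycle with complexes II to V (0 of 21), the cell cycle (0 of 30) and the acute phase (0 of 17) had no call either. These 8 lists held 4, 1, 3, 0, 4, 3, 2 and 4 genes at an unadjusted p under 0.05. Triglyceride assembly had 1 gene called lower after quantile normalization and after cyclic loess and 1 or 2 calls in 7 of the 24 fits without 1 array. In those fits the acute phase had 1 call in 4, the clock 2 calls in 1, and the cytochromes P450 and the cell cycle 1 call in 1 each. Cyp7a1, the rate-limiting enzyme of bile acid synthesis, had -2.48, 0.49 and 0.75 on the 3 days (mean -0.41 ± 0.45, adjusted p = 0.734), and Gdf15, a stress hormone known to respond to metformin, had a mean of -0.06 ± 0.11 (adjusted p = 0.854). A call that was missed does not show that a gene is unaffected.

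**Figure D4:**
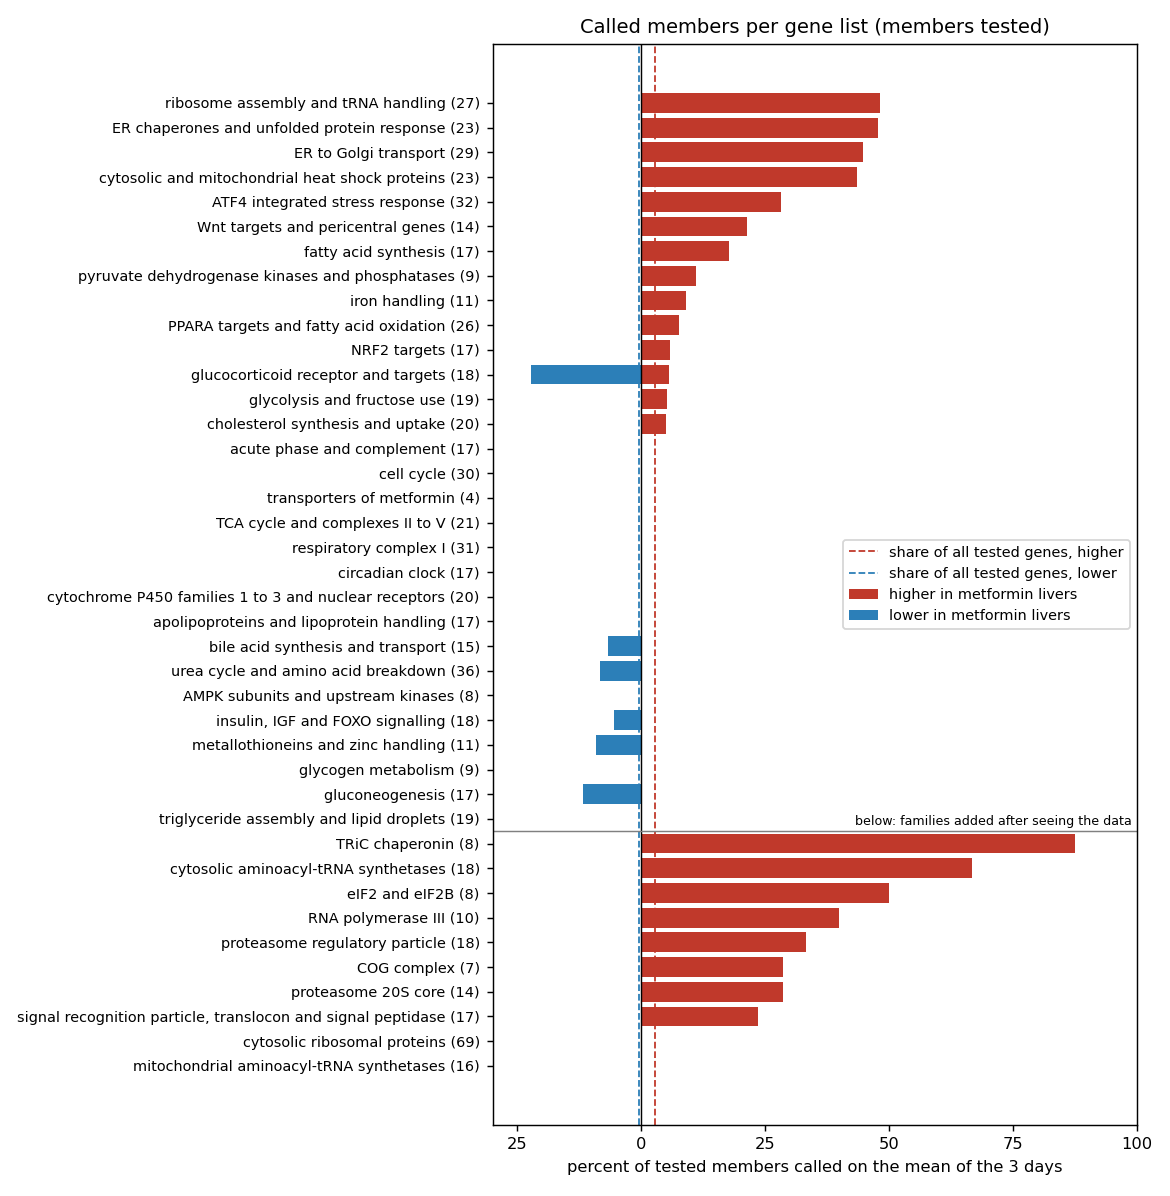
Percent of the tested members of each list called on the mean of the 3 days, higher in metformin livers to the right and lower to the left, with the number tested in brackets and dashed lines at the shares of all tested genes, 2.79% and 0.432%. Lists of chaperones, ER to Golgi transport, tRNA charging and ribosome assembly exceed 40% on the right, and glucocorticoid targets have the largest share on the left.

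Whether the mean holds on a day that did not choose the genes was asked by leaving each day out in turn. Genes were called on the mean of 2 days and read on the remaining day. All 24 arrays were in 1 fit, so the difference on the remaining day did not enter the calls but the spread of its arrays did, and counts with the days fitted apart are given beside. The 44 genes called on days 1 and 3 (43 higher) had the same direction on day 14 in 43 cases (97.7%, against 54.2% of all tested genes), with a median log2 difference of 0.59 on that day, and 35 had an unadjusted p under 0.05 in that direction (79.5%, against 10.9%). The 1 exception was Nfatc3, a transcription factor activated by calcineurin. With the days fitted apart 34 genes were called on days 1 and 3, of which 30 had the same direction on day 14 (88.2%) and 21 also an unadjusted p under 0.05 (61.8%, against 9.08%). The 66 genes called on days 1 and 14 had the same direction on day 3 in 64 cases (97.0%, against 57.3%), with 47 at an unadjusted p under 0.05 (71.2%, against 9.75%), and the exceptions were Or1f20b and Slc25a15-ps1. With the days fitted apart 13 genes were called, of which 12 had the same direction on day 3 (92.3%) and 8 also an unadjusted p under 0.05 (61.5%, against 8.98%). The sets of 44 and 66 genes each include Hspa8 and the 6 pseudogene symbols of it called on every pair of days. These cannot be counted as separate genes, and shares without them are not given here.

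Day 1 gave another picture. The 1298 genes called on days 3 and 14 had the same direction on day 1 in 632 cases (48.7%, against 47.8% of all tested genes), with a median difference of -0.01, and 74 had an unadjusted p under 0.05 in the same direction beside 104 in the opposite direction. With the days fitted apart 514 of 990 genes had the same direction on day 1 (51.9%). The genes in each set move together and are not independent, so the shares carry no test.

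**Figure D5:**
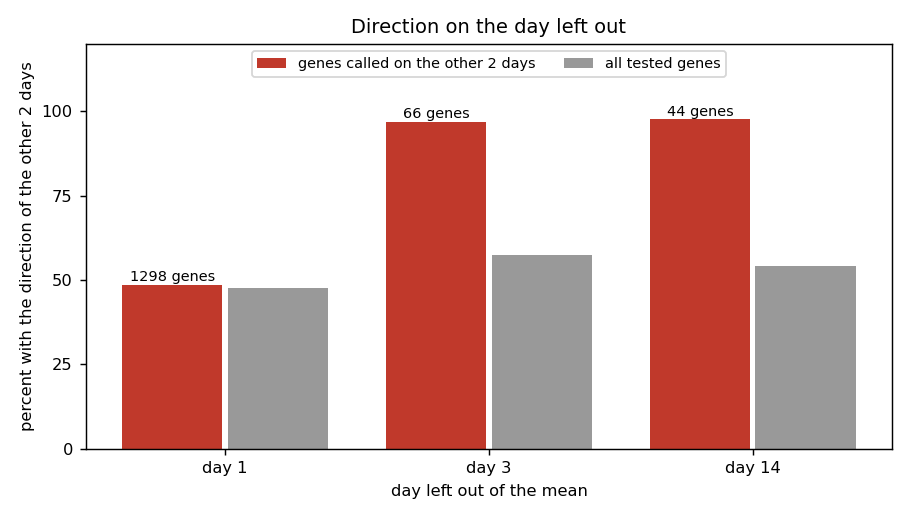
Percent of genes whose log2 difference on the day left out had the direction of the mean of the other 2 days, in red for the genes called on those 2 days (their number above the bar) and in grey for all tested genes. The red bars stand at 97.7% for day 14 and 97.0% for day 3, and at 48.7% for day 1, near the grey bar of 47.8%.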

How the data were processed

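Total RNA of 24 livers was hybridised to Affymetrix arrays, 1 sample per array and 1 colour. The authors deposited 1 intensity per probe set and array, made with RMA per the submitters' processing notes, with no version or background setting given in the sources used here. Nor is the scale stated. Values are positive and reach 982564 to 994415 per array, so they were taken as linear intensity and log2-transformed with no pseudocount and no further scaling. How far the arrays were equalised upstream is not known, so other scalings were tried.

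Of 68842 probe sets 23446 had 1 symbol, 505 several and 44891 none. Genes above the 30th percentile of all values (intensity 19.475, 4.28 on the log2 scale) in at least 4 arrays were tested in limma 3.58.1 (R 4.3.3), with 1 mean per group, a moderated test of the mean of the 3 within-day differences, a moderated F-test of the difference among days, and Benjamini-Hochberg adjustment. The number of arrays limits the precision. p-values measure the spread between arrays labelled as biological replicates.

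The members, lists and named genes were chosen with earlier results of these data known. Named were the 10 largest rises and falls of the shared class, the 5 largest carried by 1 day, up to 3 called genes per list and a short list of metformin genes. Families marked as added, the genes apart on every day or called on every pair of days, and other list members given were picked after their values were seen. Symbols of pseudogenes and unnamed loci were left out of the named genes. Matching changed 1 symbol. Alternatives covered scaling, filter, probe set choice, threshold, class limit, array weights, a replicate block, pairs of days and each array left out. Promoters came from RefSeq, build GRCr8. The model was tested on simulated data.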

Additional observations from a re-analysis of the deposited data

Results flagged for a closer look

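In 570 groups of 4 arrays (95 named genes in 6 groups), 39 held an array far from the other 3, that is 6.84% of groups, where chance gives about 1 in 20. No explanation was tested. Values are log2 intensities. Several fell in the same arrays. In metformin day 3 replicate 1 these were Golph3l at 9.82, Nupr1 at 13.08, Plk2 at 11.32, Srp54a at 11.2, Ufl1 at 10.7 and Zfr at 9.98, of which Nupr1 was above and the rest below the other 3 arrays. In control day 3 replicate 4 they were Arfgap3 at 8.57, Cad at 7.08 and Vgll4 at 7.63, all low, and Tbx3 at 6.95, high.

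Other arrays of the metformin groups stood apart for fewer genes. On day 1 replicate 1 was low for Eif2s1 (10.22), Psma6 (11.19) and Syvn1 (8.82), replicate 3 was low for Acaca (12.5), and replicate 4 was high for Entpd7 (8.25). On day 3 replicate 2 was low for Slc25a48 (6.46), and replicate 3 was high for Asns (8.45). On day 14 replicate 1 was low for Me1 (13.34) and Stip1 (12.41), replicate 2 was high for Igfbp1 (10.65) and Tfrc (11.51) and low for Pck1 (11.66), and replicate 4 was low for Asl (12.19) and Prrc1 (9.02).

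In the control groups, on day 1 replicate 1 was low for Mapkapk2 (11) and high for Fgf21 (6.57), replicate 2 was low for Mettl1 (6.34) and Srp68 (11.8), and replicate 4 was low for Psmd14 (9.62). On day 3 replicate 2 was low for Cyp7a1 (13.25) and high for Mvd (7.29), and replicate 3 was high for Tbccd1 (8.04). On day 14 replicate 1 was low for Ficd (7.02) and Srebf1 (10.8) and high for Erbb3 (11.76), replicate 3 was high for Cct5 (7.73), and replicate 4 was low for Mvd (6.25), Sec24d (10.99) and Wrnip1 (5.98).

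The metformin effect of 12 named genes differed among the days by limma's moderated F-test with adjustment over all genes. The adjusted p was 0.00671 for Mvd, 0.00956 for Acly, 0.011 for Pdk1, 0.0179 for Mt2A, 0.0211 for Pck1 and 0.022 for Tcp11l2. It was 0.0236 for Asl and for Cpt1a, 0.0299 for Fasn and for Me1, 0.0378 for Magohb and 0.0389 for Erbb3. In each of the 12 genes the day 14 difference was the largest of the 3.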

How the results depend on the processing

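With 1 array left out at a time the counts ran from 393 to 945 for all calls (635 with all arrays), 348 to 813 for calls higher, 45 to 219 for calls lower, 297 to 731 for shared genes, 32 to 151 for genes carried by 1 day, 302 to 753 for the same direction on all days, and 21 to 272 for a difference among the days. The count of lower calls was 219 and of genes carried by 1 day 151 without metformin day 14 replicate 1. Other moves over 1.5 times came from control day 1 replicate 2, control day 14 replicate 1, metformin day 1 replicate 4 and metformin day 3 replicates 2 and 4 for several counts, and the count for a difference among the days moved so far in 14 of the 24 fits. With every probe set tested apart the counts were 215 calls, 199 higher, 16 lower, 198 shared, 7 carried by 1 day, 200 of the same direction and 7 differing among the days. With array weights they were 1016 calls, 228 lower, 778 shared, 123 carried by 1 day, 808 of the same direction and 353 differing among the days. At a threshold of 0.01 they were 151, 143 higher, 8 lower, 135 shared, 6 carried by 1 day, 136 of the same direction and 7 differing among the days. Lower calls numbered 174 after quantile normalization and 178 after cyclic loess. A class limit of 1/2 of the sum gave 300 shared genes and 335 carried by 1 day, and a limit of 3/4 gave 32 carried by 1 day. Means over 2 days gave 44 calls (43 higher, 1 lower) on days 1 and 3, 66 (55 higher, 11 lower) on days 1 and 14, and 1298 (942 higher, 356 lower) on days 3 and 14. With the days fitted apart 12 genes kept their direction on day 3. The cause of these moves was not tested, except that dropping arrays or days leaves fewer samples.

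Among named genes the sign of the mean changed only with a day left out. Over days 1 and 3 the means were -0.13 for Acly, 0.44 for Cpt1a, -0.11 for Fasn, 0.20 for Mt2A and -0.085 for Mvd, and over days 3 and 14 they were 0.62 for Cyp7a1, 0.0715 for Gdf15 and 0.23 for Srebf1. Other settings kept the total within 1.5 times of 635, at 585 after centring, 590 after quantile normalization, 629 after cyclic loess, 718 with a pseudocount of 16, 558 without a filter, 744 with a stricter filter, 630 with the mean of all probe sets, 651 with trended robust variances, and 614 without pseudogene symbols, an alternative chosen after seeing the data. Of the named calls, those of Acly, Plk2 and Txnrd1 were lost after centring, quantile normalization and cyclic loess (limma adjusted p between 0.0509 and 0.0643), those of Polr3f and Psma6 after quantile normalization, that of Baat after cyclic loess, those of Acly, Mt2A, Plk2, Polr3a and Txnrd1 without a filter, and that of Hyou1 with the mean of all probe sets. Fasn was called with array weights (limma adjusted p = 0.0490). With every probe set tested apart 43 named genes lost their call. The 95 named genes include some, such as Fasn and Cpt1a, that were not called with the main settings and had no call to lose.

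Groups share replicate numbers. Deviations of same-numbered arrays correlated between -0.05 and 0.09 in 12 pairs, none over 0.1, and 4 of 12 pairs matched best with their own number. The arrays were treated as unpaired in the main fit. Whether same-numbered arrays share a cage or handling is not given by the labels and was not tested. A fit with the replicate number as a block gave 599 calls and 66 genes differing among the days, and ended the calls of Acly, Asns, Igfbp1, Mt2A, Polr3a and Txnrd1.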
